A study of Mus musculus with 4 samples.

Results

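The 10 receptors described here are those through which a CD8+ T cell receives signals of the tumor necrosis factor (TNF) family and of the CD28 family. They are Tnfrsf25, Cd27, Tnfrsf4, Tnfrsf9, Tnfrsf18, Tnfrsf1a, Tnfrsf1b, Fas, Cd28 and Icos. They were taken by gene symbol from a table of 55401 genes, and all 10 were present. Read counts came from 4 libraries of mouse P14 CD8+ T cells (their transgenic receptor recognises lymphocytic choriomeningitis virus, LCMV) sorted from the spleens of mice infected with its Armstrong strain. All cells had been transduced, 2 libraries with an empty vector and 2 with a vector for overexpression of Hic1, which encodes a repressor of transcription with zinc fingers. The sample labels put the harvest at day 32 after infection and the series text at day 7, and the sources used here state neither the age of the mice, nor the host strain, nor the level of Hic1 protein. Each library came from about 1000 resorted cells, and nothing in the labels says whether the replicates of a group came from separate mice, so p-values measure the spread between these samples.

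Receptors of the TNF family bind trimeric ligands and signal through short cytoplasmic tails. Death domain receptors (Tnfrsf25, Tnfrsf1a and Fas) recruit TRADD or FADD and can lead to NF-kB activation or to caspase activation. The TRAF-binding receptors (Cd27, Tnfrsf4, Tnfrsf9, Tnfrsf18 and Tnfrsf1b) recruit TRAF adaptors, activate NF-kB and prolong T cell survival. Cd28 and Icos belong to the immunoglobulin superfamily and bind phosphoinositide 3-kinase through their tails. On CD8+ T cells Cd27 and Cd28 are present before activation, whereas Tnfrsf4, Tnfrsf9 and Icos are mostly induced by it.

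Depth differed between the groups, with 4017346 and 3941364 counts in all for the empty vector against 7501285 and 8839317 for the Hic1 vector. Hic1 had 3 and 5 counts with the empty vector against 314 and 161 with the Hic1 vector (reads of the vector and of the cell's own gene cannot be told apart). Xist was found in the replicates numbered 1 (1885 and 3590 counts, against 0 and 3), so cells with female and with male transcripts were mixed within each group, and log2 differences within each replicate number are given below. Of 8 CD8 T cell markers, all had counts, with a summed level of 6780 to 7340 CPM (counts scaled to library size) in the empty vector libraries and 7860 to 8890 CPM with the Hic1 vector. Summed markers of B cells were 18.2 and 6.0 against 42.1 and 16.9 CPM, and those of macrophages, neutrophils, erythroid cells and platelets did not exceed 62.7 CPM in any library. Dendritic cell markers summed to 493 and 520 against 640 and 539 CPM, nearly all of it Itgax, and plasma cell markers to 85.2 and 107 against 85.7 and 52.0 CPM, nearly all of it Xbp1. Of 5 NK cell markers, Gzma, which effector CD8+ T cells also express, made up most of the sum. It was at 7250 and 7060 against 5140 and 5980 CPM without a call. Klra8 rose (2 and 1 against 78 and 48 counts) and Klrb1c was at 29.4 and 43.7 against 58.6 and 70.8 CPM. Eomes went the other way, at 20.4 and 17.2 against 6.05 and 11.7 CPM. Ncr1 had 0, 2, 1 and 1 counts (both empty vector libraries first). The part of these cell types in the results was not tested. The CD4 T cell markers summed to 10.4 and 14.2 CPM with the empty vector against 18.9 and 18.8 CPM with the Hic1 vector. Nearly all of it was Zbtb7b, with 41 and 56 against 129 and 163 counts, and neither marker was called. Cd4 itself had 2, 1, 5 and 2 counts (both empty vector libraries first). The part of Zbtb7b in the results was not tested either. In bulk RNA, fewer cells with a transcript and less transcript per cell cannot be told apart.

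Tnfrsf25, a death domain receptor for the ligand TL1A that costimulates T cells, was the 1 receptor of the 10 that passed the test. It was higher with the Hic1 vector, but its call was close to the threshold and was lost under some other settings. Tnfrsf18, Tnfrsf4, Tnfrsf1b, Cd27 and Tnfrsf1a also had higher values in both Hic1 vector libraries than in both empty vector libraries, but did not pass the test. Icos had lower values in both, and it did not pass either. For Tnfrsf9, Fas and Cd28 the groups overlapped.

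The test was edgeR's quasi-likelihood test on the counts of all 11676 genes that passed a filter on low counts, with Benjamini-Hochberg adjustment over all of them and a threshold of 0.05. By this test 1 of the 10 receptors was called, when 1.82% of all genes tested were called (213 genes, but 8 without empty vector replicate 1). In the higher direction the receptors gave 1 call against 0.719% of genes (84 genes), and in the lower direction none against 1.1% (129 genes). Without a common scaling beyond library size the split of all calls was 70 higher and 251 lower, and with a GC trend subtracted it was 25 higher and 76 lower. For 6 of the 10 receptors the Hic1 vector values were both higher than the empty vector values, against 26.5% of genes tested, and for 1 of 10 both were lower, against 24.9%. At an unadjusted p under 0.05 there were 3 of the 10 (Tnfrsf25, Tnfrsf18 and Icos), against 19.1% of genes. The median log2 fold change of the 10 was 0.20 beside 0.0086 for all genes tested. All 10 passed the filter, but Tnfrsf4 passed it through the Hic1 vector libraries, where it was higher, so its place among the tested genes is not independent of its difference.

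The sequence before the start site is shown for Tnfrsf25, the receptor that was called, and for Cd27 and Tnfrsf18. Cd27 and Tnfrsf18 had the most matches to a Hic1 core in this window and a small and a moderate difference. The described Hic1 binding sequence has the core GGGCA, which reads as TGCCC on the other strand and is marked here in capitals. Sequences are from RefSeq (GRCm38.p6), 5′ to 3′ on the gene's strand, and stretches inside annotated exons were left out.
Tnfrsf25, chr4:152115684-152115933, plus strand: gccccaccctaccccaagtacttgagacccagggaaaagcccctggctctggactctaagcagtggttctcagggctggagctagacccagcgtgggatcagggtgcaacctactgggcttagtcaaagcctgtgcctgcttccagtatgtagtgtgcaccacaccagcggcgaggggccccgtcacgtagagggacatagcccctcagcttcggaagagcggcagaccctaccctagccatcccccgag
Cd27, chr6:125237028-125237277, minus strand: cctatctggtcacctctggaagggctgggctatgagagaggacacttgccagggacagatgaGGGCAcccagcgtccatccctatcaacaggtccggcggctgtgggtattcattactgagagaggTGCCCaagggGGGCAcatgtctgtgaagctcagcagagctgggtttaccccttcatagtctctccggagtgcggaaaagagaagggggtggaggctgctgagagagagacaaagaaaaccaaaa
Tnfrsf18, chr4:156026072-156026163, plus strand: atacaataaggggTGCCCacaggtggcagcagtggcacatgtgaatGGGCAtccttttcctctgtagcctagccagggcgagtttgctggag
Of the 10 receptors, 8 had promoter entries in the RefSeq table, with 10 start sites in all, and Cd28 and Icos had no entry. Over the 250 bases before the start, 5 of these 10 windows held the core on either strand, against 47.7% of all 32851 promoter windows of that length. Cd27 had 3 matches, Tnfrsf18 had 2, and the windows at both starts of Tnfrsf25 had 0. The full Hic1 response element consensus had 0 matches in the 10 windows and was in 0.137% of all windows. The NF-kB consensus was in 2 of the 10, at the second start of Tnfrsf25 and the second start of Tnfrsf9, against 7.25% of all. A match is a description of the letters, and no binding was measured in these data.

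Among the death domain receptors, Tnfrsf25 (chromosome 4, positions 152115934 to 152120119, plus strand, mm10) had 27 and 49 counts with the empty vector and 175 and 433 counts with the Hic1 vector. That is 6.55 and 12.2 CPM against 24.6 and 49.3 CPM, or 9.40 ± 4.02 against 37.0 ± 17.5 CPM (SD, n = 2 each). Both Hic1 vector libraries were above both empty vector libraries, and in each group replicate 2 was above replicate 1. The log2 fold change was 1.95 ± 0.407 (SE), which is 3.85-fold with a 95% interval of 2.11 to 7.42, and the adjusted p was 0.0467 by edgeR's quasi-likelihood test. It ranked 43rd of the 11676 genes by size of the rise and 166th by p, close to the threshold. The log2 difference between the libraries numbered 1 was 1.86, and between those numbered 2 it was 1.98. Leaving out empty vector replicate 1 gave a log2 value of 1.58 (edgeR adjusted p = 0.295) and leaving out Hic1 vector replicate 2 gave 1.36 (adjusted p = 0.111), so either omission ended the call. Over all 16 alternatives the value stayed above 0, at 1.36 to 2.44, and 11 of the 16 called it. The lowest adjusted p, 1.19e-08 by edgeR, came with no filter on low counts. Several other calls were close to the threshold, such as 0.0487 in edgeR without robust fitting and 0.0486 in edgeR with at least 1 CPM in 2 libraries.

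Tnfrsf1a, the widely expressed TNF receptor with a death domain, had 41.8 and 40.5 CPM with the empty vector and 42.5 and 55.2 CPM with the Hic1 vector. The groups did not overlap, but Hic1 vector replicate 1 was within 1 CPM of empty vector replicate 1, and the log2 fold change of 0.25 ± 0.215 (SE, n = 2 per group) did not pass (adjusted p = 0.571). Its 95% interval ran from 0.86-fold to 1.65-fold. Fas, the receptor that starts apoptosis when bound by Fas ligand, had 23.1 and 24.7 CPM against 19.6 and 33.2 CPM. The empty vector libraries lay between the Hic1 vector libraries, and the log2 difference was -0.23 within replicate number 1 and 0.42 within number 2. The fitted value for Fas was 0.14 ± 0.293 (SE), with a 95% interval of 0.71-fold to 1.72-fold.

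Set against its own family within each library, Tnfrsf25 took a larger place with the Hic1 vector. Levels of different genes are compared here in TPM, which divide counts by exon length and scale them to one sum in every library. In TPM, Tnfrsf25 was 9.54% and 16.3% of the summed level of the 3 death domain receptors with the empty vector, and 29.5% and 36.7% of it with the Hic1 vector. The ratio of Tnfrsf25 to Tnfrsf1a was 0.179 and 0.344 against 0.659 and 1.02, and that of Tnfrsf25 to Fas 0.257 and 0.448 against 1.14 and 1.35. Both ratios separated the groups and do not depend on the scaling between libraries. They are not corrected for the trend with transcript GC content described below. Genes near the GC content of Tnfrsf25, Tnfrsf1a and Fas had median log2 values of 0.29, 0.26 and -0.16. With 2 libraries per group an exact two-sided permutation test cannot go below p = 0.333, which is what both ratios gave.

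**Figure D1:**
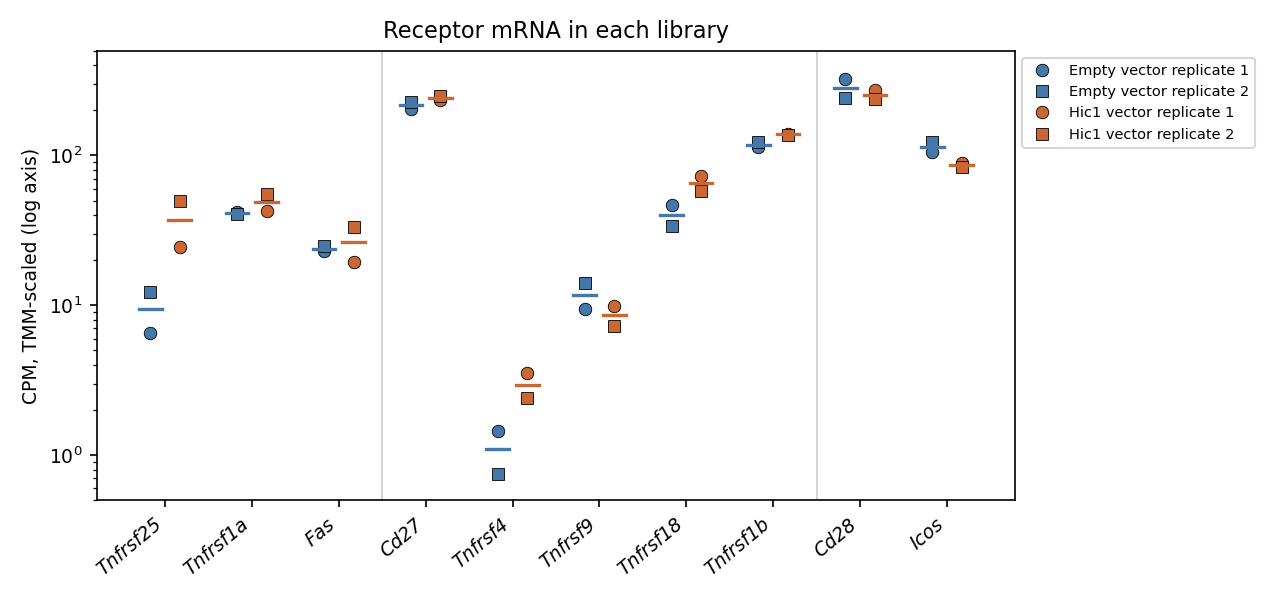
TMM-scaled CPM (log axis) of the 10 receptors in each of the 4 libraries, with circles for replicate 1, squares for replicate 2 and bars for group means. The vertical lines separate death domain, TRAF-binding and immunoglobulin superfamily receptors. Tnfrsf25 shows the widest separation, from 6.55 and 12.2 CPM to 24.6 and 49.3 CPM, whereas Cd27 and Tnfrsf1b differ little between groups.

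Among the TRAF-binding receptors, Tnfrsf18 (chromosome 4, positions 156026164 to 156028895), which encodes GITR, had the lowest p of the receptors that did not pass. It measured 46.4 and 33.7 CPM under the empty vector against 72.8 and 58.1 CPM under the Hic1 vector. The groups did not overlap, and the log2 fold change was 0.70 ± 0.222 (SE, n = 2 per group), or 1.63-fold with an interval of 1.17 to 2.28 (adjusted p = 0.116 by edgeR). It was called in 2 of the 16 alternatives, one of them without a filter on low counts (log2 0.77, edgeR adjusted p = 0.0167). The log2 differences within replicate numbers 1 and 2 were 0.65 and 0.78. Regulatory T cells express much Tnfrsf18 and Tnfrsf4, and the 6 markers of these cells, both genes among them, summed to 128 and 85.4 against 167 and 115 CPM with none called. Foxp3, which defines them, had 2, 0, 0 and 2 counts. Ikzf2 had 39 and 22 against 151 and 109 counts, Ctla4 had 83 and 42 against 239 and 139, and Il2ra had 207 and 140 against 256 and 225 counts at higher depth, and their part in the result was not tested. An antisense gene, Gm16008, overlaps 27.2% of the exon bases of Tnfrsf18 and had 3 and 3 counts against 7 and 11. Since the labels do not say that strand was used in counting, reads of the overlap cannot be assigned. Tnfrsf18 itself had 191 and 135 against 517 and 510 counts, and the part of the overlap in them was not tested.

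Tnfrsf4, which encodes OX40, lies 9552 bases before Tnfrsf18 and had 6 and 3 counts against 25 and 21. These were 1.46 and 0.749 CPM against 3.52 and 2.39 CPM, the lowest of the 10 receptors in every library. The log2 fold change of 1.19 ± 0.746 (SE) did not pass (adjusted p = 0.331), and its 95% interval of 0.862-fold to 8.22-fold held both no difference and a large rise. The ratio of pooled rates was 2.61, with an exact counting interval of 1.26 to 6.08 that leaves out the spread between libraries. Tnfrsf9, which encodes 4-1BB, a receptor induced by activation, had 9.47 and 13.99 CPM against 9.86 and 7.29 CPM. Its groups overlapped, and the log2 fold change was -0.44 ± 0.378 (SE, adjusted p = 0.556). The libraries numbered 1 differed by 0.056 on the log2 scale, and those numbered 2 by -0.91.

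Cd27, the receptor of CD70 that supports memory formation, was the most abundant of the 10 per length in all 4 libraries. It had 205.6 and 227.1 CPM with the empty vector and 235.3 and 251.1 CPM with the Hic1 vector. The groups did not overlap, yet the difference was small, 1.12-fold with an interval of 0.91 to 1.39 (log2 0.17 ± 0.14, SE; adjusted p = 0.556). Tnfrsf1b, the TNF receptor that lacks a death domain and costimulates T cells, was at 113.6 and 122.7 CPM against 139.4 and 137.1 CPM. It was likewise higher in both Hic1 vector libraries, by 1.17-fold with an interval of 0.935 to 1.46 (log2 0.23 ± 0.148, SE; adjusted p = 0.444). These intervals exclude a 2-fold difference for both genes.

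Of the immunoglobulin superfamily receptors, Cd28, the main costimulatory receptor for CD80 and CD86, measured 322.6 and 243.1 CPM under the empty vector against 271.9 and 238.2 CPM under the Hic1 vector. The groups overlapped, and the log2 fold change was -0.15 ± 0.161 (SE, n = 2 per group; adjusted p = 0.669). Icos, the related receptor for ICOSL, was at 105.6 and 122.7 CPM against 89.1 and 84.3 CPM. Both Hic1 vector libraries were lower, by a log2 difference of -0.24 between the libraries numbered 1 and -0.54 between those numbered 2. The log2 fold change was -0.40 ± 0.159 (SE) with an adjusted p of 0.203, and its 95% interval was 0.598-fold to 0.966-fold. The TPM ratio of Icos to Cd28 was 0.584 and 0.90 with the empty vector and 0.585 and 0.632 with the Hic1 vector, so the balance between these receptors overlapped between groups.

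**Figure D2:**
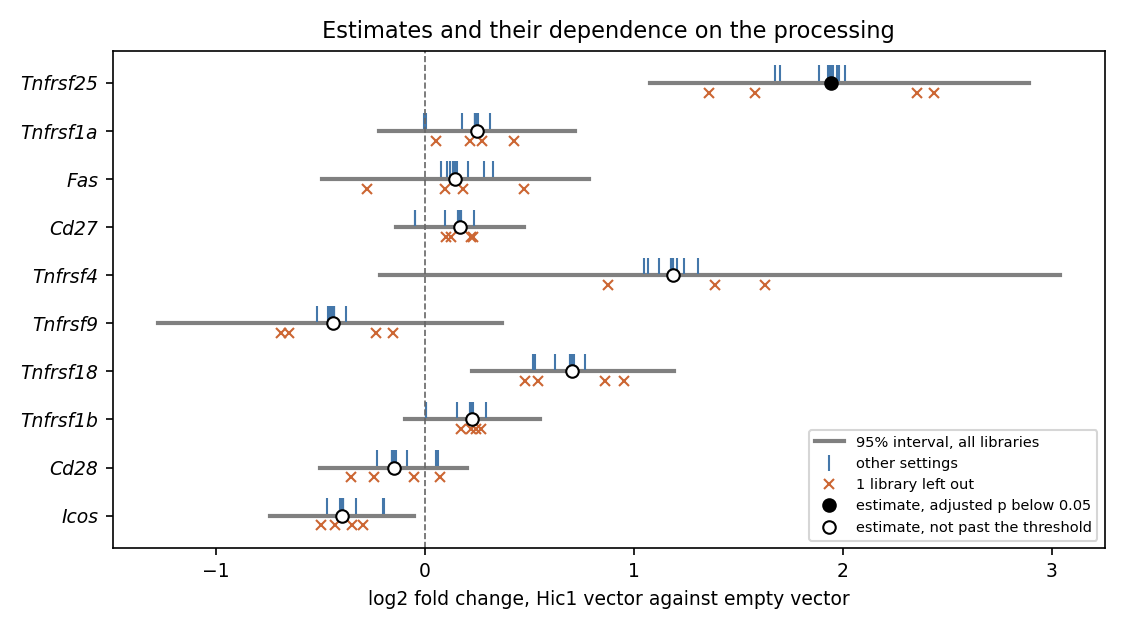
Log2 fold change of each receptor, Hic1 vector against empty vector, with the 95% interval from the 4 libraries (grey), the estimates with 1 library left out (crosses) and those under the other settings (ticks). Filled circles passed an adjusted p of 0.05. Tnfrsf25 lies above 0 in every alternative, from 1.36 to 2.44, while marks for Cd27, Cd28, Fas and Tnfrsf1a fall on both sides of 0.

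Per length, Cd27 had the highest and Tnfrsf4 the lowest level in both groups, while Tnfrsf25, Tnfrsf18 and Icos changed place among the others. With the empty vector, Cd27 stood highest at 234 ± 18.2 TPM (SD, n = 2), followed by Cd28 at 116 ± 22.3 TPM. Icos (84.0 ± 9.5 TPM), Tnfrsf1b (78.1 ± 4.81 TPM) and Tnfrsf18 (66.2 ± 14.3 TPM) came next, and neighbours among these overlapped between replicates. Tnfrsf1a was at 40.01 ± 0.585 TPM and Fas at 29.2 ± 1.66 TPM. Tnfrsf9 (10.9 ± 3.04 TPM) and Tnfrsf25 (10.4 ± 4.53 TPM) could not be ordered, and Tnfrsf4 was lowest at 2.03 ± 0.909 TPM.

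With the Hic1 vector, Cd27 was again first, at 254 ± 18.4 TPM. Tnfrsf18 (104 ± 13.8 TPM) and Cd28 (101 ± 6.78 TPM) could not be ordered, Tnfrsf1b was at 88.0 ± 1.29 TPM and Icos, now below it without overlap, at 61.4 ± 0.777 TPM. Tnfrsf25, at 39.7 ± 19.7 TPM, now overlapped Tnfrsf1a (45.9 ± 9.59 TPM) and Fas (31.2 ± 12.1 TPM). Tnfrsf9 (7.63 ± 1.41 TPM) and Tnfrsf4 (5.24 ± 1.28 TPM) were lowest. By class, the immunoglobulin superfamily receptors made up 31.3% and 28.4% of the summed TPM of the 10 with the empty vector and 23.6% and 20.6% with the Hic1 vector. The TRAF-binding receptors made up 57.4% and 59.2% against 64.1% and 60.3%, so Cd28 and Icos together took a smaller share in both Hic1 vector libraries. These shares are not corrected for the trend with transcript GC content described below, and Cd28 and Icos are GC-poor. With that trend subtracted, their log2 fold changes were 0.054 and -0.20.

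The 6 receptors with higher values in both Hic1 vector libraries were also the 6 of highest transcript GC content. Over all genes tested, the median log2 fold change was -0.17 for genes under 45% GC and 0.26 for genes of 55% GC or more, so the difference between the groups moved with GC content. Tnfrsf25 had a transcript GC content of 58.8%, and Tnfrsf1a, Tnfrsf1b, Cd27, Tnfrsf18 and Tnfrsf4 had 57.1%, 56.6%, 56.5%, 55.5% and 54.9%. Icos (42.4%), Cd28 (41.2%) and Fas (43.4%) were GC-poor, and Tnfrsf9 was at 50.7%. Of these Fas also had a fitted value above 0, with groups that overlapped. Genes within 2 percentage points of the GC content of Cd27 had a median log2 value of 0.24, above the 0.17 of Cd27, and around Tnfrsf25 that median was 0.29.

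With the GC trend of each library subtracted, the log2 fold change of Tnfrsf25 was 1.70 and it was not called (adjusted p = 0.0837 by edgeR, n = 2 per group). Under the same correction Tnfrsf18 stood at 0.52 ± 0.224 (SE, adjusted p = 0.299 by edgeR) and Tnfrsf4 at 1.05 ± 0.74 (adjusted p = 0.45). The values of Tnfrsf1a and Tnfrsf1b came to 0.0046 and 0.0048, Cd27 was at -0.047 and Cd28 at 0.054. Icos was at -0.20, Tnfrsf9 at -0.43 and Fas at 0.32. The small positive values of Cd27, Tnfrsf1a and Tnfrsf1b were thus not present once the trend was removed. The values of Tnfrsf25, Tnfrsf4 and Tnfrsf18 remained above 0, but none of them was called.

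**Figure D3:**
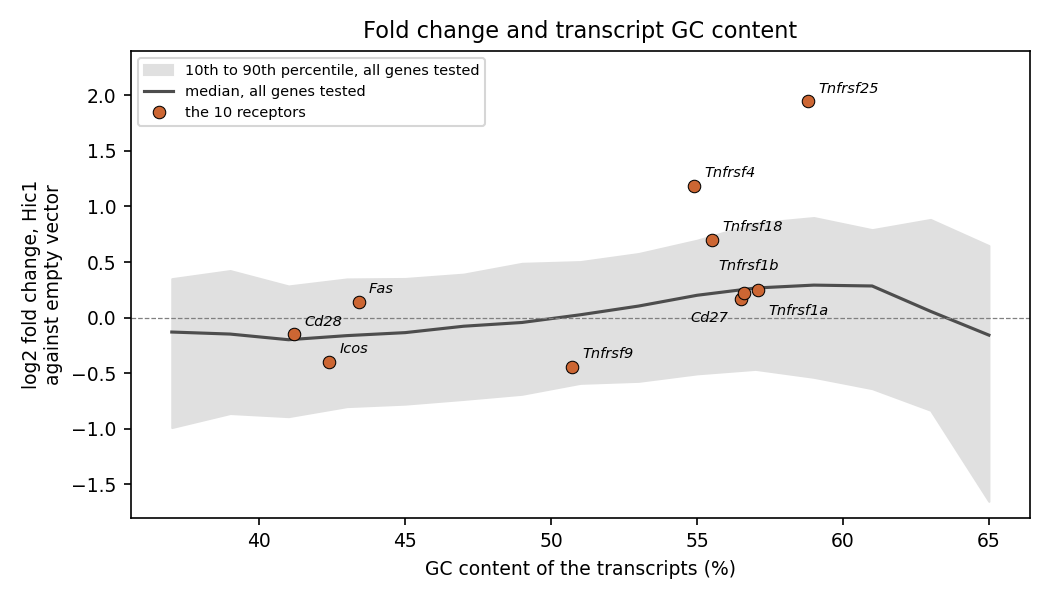
Log2 fold change (Hic1 against empty vector) against transcript GC content in percent for the 10 receptors (points), with the median (line) and the 10th to 90th percentile (grey) of all genes tested in bins of GC content. The median rises with GC content between about 42% and 60% GC, Cd27, Tnfrsf1a and Tnfrsf1b lie on it, Tnfrsf18 is at the upper edge of the grey band, and Tnfrsf25 and Tnfrsf4 lie above it.

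The ligands of the 10 receptors were mostly low in these cells and none was called. Of 11 ligand genes, 7 passed the filter, with a median log2 fold change of -0.14 beside 0.0086 for all genes. Of the 7, 1 had an unadjusted p under 0.05 in the edgeR fit, against 19.1% of all genes. Fasl, the Fas ligand of cytotoxic T cells, was the most abundant, at 115.8 ± 1.99 against 139.2 ± 44.5 CPM (SD, n = 2), and its groups overlapped. Icosl, the ligand of Icos, had 30 and 65 counts with the empty vector and 33 and 25 with the Hic1 vector, a log2 value of -1.58 ± 0.498 (SE) that did not pass (adjusted p = 0.105). Cd80 and Cd86, ligands of Cd28, were at 41.5 ± 8.16 against 43.1 ± 0.00707 CPM and at 27.1 ± 1.25 against 32.4 ± 2.6 CPM. Tnf, Lta and Tnfsf9 had log2 values of -0.14, -0.20 and -0.39. The ligand of Tnfrsf25, Tnfsf15, had 2 and 4 counts against 0 and 0, and Cd70, Tnfsf4 and Tnfsf18 had at most 8 counts in any library.

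Elsewhere in the family, Relt and the ligand gene Ltb were called higher, Relt close to the threshold. Their transcript GC contents were 58.3% and 62.6%. All tested genes of 58% to 60% and of 62% to 64% GC had median log2 values of 0.29 and 0.057. Whether these calls hold after GC correction or under the other alternatives was not tested. Among 11 tested of 20 other TNF receptor superfamily genes, 1 rose and none fell, with a median of 0.36, against 0.719% of all genes higher and 1.1% lower. At an unadjusted p under 0.05 there were 2 of the 11, against 19.1% of all genes. Relt, a TNF receptor family member of lymphoid tissue, had 95 and 113 counts against 349 and 465, that is 25.7 ± 3.66 against 51.1 ± 2.72 CPM (log2 0.99 ± 0.224, SE; adjusted p = 0.0482 by edgeR). Tnfrsf26 was at 65.9 ± 3.26 against 110.2 ± 29.8 CPM, and Tnfrsf13b had a log2 value of 0.36 ± 0.189, while Tnfrsf12a and Tnfrsf13c had values of -1.40 ± 0.792 and -0.75 ± 0.37. None of these passed. Among 5 tested of 10 other ligands, Ltb, which encodes lymphotoxin beta, was the 1 call (log2 1.24 ± 0.165, SE) and the 1 gene with an unadjusted p under 0.05. Cd40lg, Tnfsf10, Tnfsf8 and Tnfsf14 did not pass, with values of 0.70, 0.30, -0.55 and -0.17.

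No adaptor or NF-kB gene downstream of the receptors was called by edgeR, and at an unadjusted p under 0.05 there were 6 of 21 adaptor and ubiquitin genes, 5 of 22 NF-kB genes and 2 of 12 genes of death domain signalling, against the 19.1% of all genes. All 21 TRAF adaptor and ubiquitin regulator genes were tested, 16 had values above 0 and the median was 0.20. Traf1, an NF-kB-induced adaptor of Tnfrsf9 and Tnfrsf1b, was at 156.2 ± 0.819 against 239.4 ± 58.4 CPM (log2 0.61 ± 0.175, SE; adjusted p = 0.0926), and Traf2, Tradd and Rbck1 had values of 0.54, 0.55 and 0.41. Of 22 NF-kB pathway genes 16 had values above 0, with a median of 0.24, and Ikbkb, Nfkbia and Tab1 stood at 0.51, 0.52 and 0.77. Over all genes tested the median was 0.0086, and for genes of 55% GC or more it was 0.26. Traf2, Tradd, Rbck1, Nfkbia and Tab1 had transcript GC contents of 54.8% to 60.4%, and Traf1 and Ikbkb had 53.9% and 52.0%. The part of GC content in the values above 0 of these lists was not tested. Malt1, a paracaspase of the antigen receptor route to NF-kB, had 886 and 399 counts against 526 and 571, a log2 value of -1.18 ± 0.342 (adjusted p = 0.141). Beyond Fas, 12 genes of death domain signalling were tested. Among these Daxx (0.61 ± 0.156) and Ripk3 (0.65 ± 0.173), a kinase of necroptosis, had the lowest p, and Cradd and Cflar stood at 0.51 and -0.18.

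The signalling genes of Cd28 and Icos also gave no call among 24 tested. Of these, 14 had values above 0, and the median was 0.062 beside 0.0086 for all genes tested. At an unadjusted p under 0.05 there were 6 of the 24, against 19.1% of all genes. Akt1, the kinase downstream of phosphoinositide 3-kinase, had 84 and 115 counts against 330 and 463 (log2 1.01 ± 0.241, SE; adjusted p = 0.0571). Lck and Lcp2, kinase and adaptor of proximal signalling, had values of 0.40 and 0.45, and the adaptor Grap2 one of -0.61. Of 22 other costimulatory and CD28-related receptors tested, 5 had an unadjusted p under 0.05, against 19.1% of all genes. Cd160 was the 1 call (log2 1.05 ± 0.164, SE), in the higher direction, against 0.719% of all genes. The other 21 did not pass, Cd6 (0.70 ± 0.167), Cd244a (0.93 ± 0.29), Klrk1 (-0.33) and Dpp4 (0.42) among them. Of 4 tested genes of receptor shedding, none was called and 1, Adam10, had an unadjusted p under 0.05, against 19.1% of all genes. Adam10 was at 236.7 ± 50.7 against 144.4 ± 8.17 CPM (log2 -0.71 ± 0.169, adjusted p = 0.0569) and Adam17, the protease that cleaves TNF and its receptors, at 156.2 ± 23.6 against 150.9 ± 0.316 CPM. Adam8 and Rhbdf2 had values of -0.78 and 0.24.

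**Figure D4:**
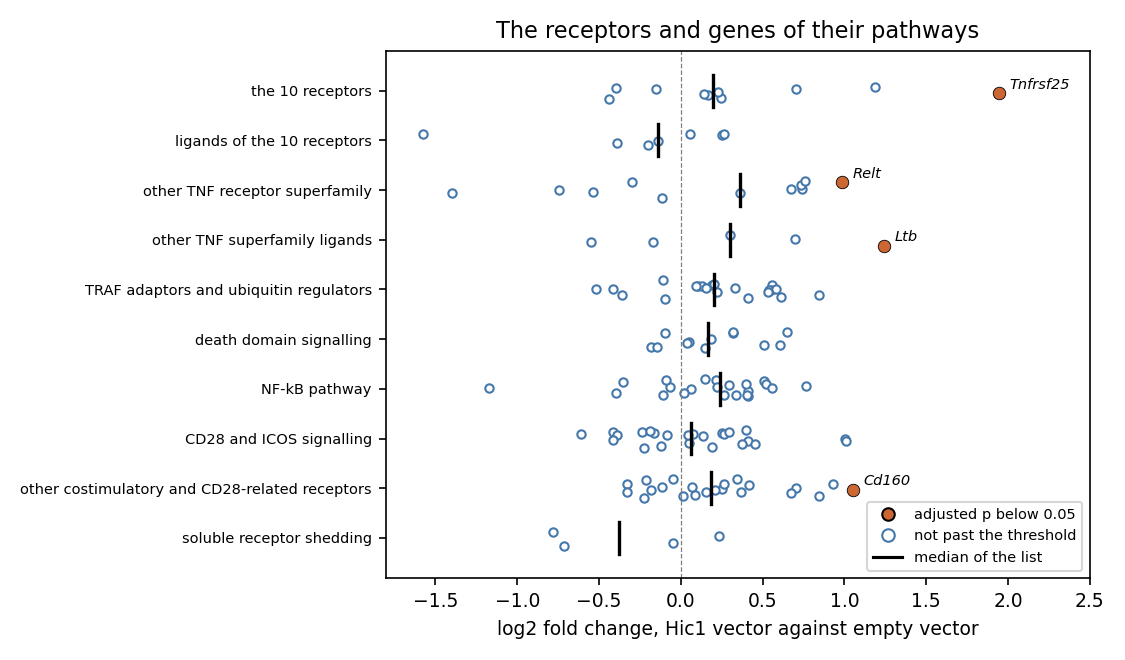
Log2 fold change (Hic1 against empty vector) of every tested gene in the 10 receptors and in each list of related genes, with a bar at the median of the list. Orange points passed an adjusted p of 0.05: Tnfrsf25, Relt, Ltb and Cd160, all of them higher with the Hic1 vector.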

How the data were processed

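Counts per gene were deposited by the authors as whole numbers for each library. The submitters' processing notes name mm10, featureCounts 1.5.3, STAR 2.5.2b, DESeq2 1.3.2 and Trimmomatic 0.38, without roles. Per the labels' protocols, libraries were Smart-seq2 and had 12 PCR cycles. The deposited normalized signal equals the count divided by 1 factor per library, plus 1, and was used only for that check.

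Genes were filtered with filterByExpr (minimum count 10, total 15), scaled by TMM and fitted by group with edgeR 4.0.16 (robust, prior count 2). The SE and 95% interval come from the coefficient without the prior count. limma 3.58.1 and DESeq2 1.42.0 served as alternatives. Symbols, exon lengths, GC content (median over transcripts) and positions come from GENCODE M21, and 99.5% of identifiers matched. TPM were computed over all genes with a length. The test was checked on simulated counts. PCR reads were not tied to single molecules by identifiers, so an interval from counts covers only counting error. The 10 receptors and all lists were chosen with earlier results of these data known. All receptors and their ligands are named, and in each other list the called genes and up to 4 more of lowest p.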

Additional observations from a re-analysis of the deposited data

How the results depend on the processing

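The 213 calls (84 higher, 129 lower) became 321 (251 lower) with library sizes alone, 819 (461 and 358) with no filter on low counts, 140 (47 higher) in edgeR without robust fitting, 101 (25 and 76) after GC correction, 418 (152 and 266) by DESeq2 and 121 (33 higher) by limma voom. With 1 library left out the calls ranged from 8 to 318, the higher ones from 6 to 87 and the lower ones from 2 to 232. A group is then a lone library, assumed to vary like the other group, and the lowest counts came without empty vector replicate 1. Of the 10 receptors, 0 were called with RLE scaling, after GC correction and by limma voom, 2 with no filter, and 0 to 1 with 1 library left out. Tnfrsf25 lost its call at a log2 fold change of 1.94 with RLE scaling, 1.70 after GC correction and 1.98 by limma voom, and ranged from 1.36 to 2.44 over single omissions. Tnfrsf18 was called with no filter (0.77). The sign turned for Cd27 (-0.047) and Cd28 (0.054) after GC correction. Over single omissions Cd28 ranged from -0.35 to 0.071 and Fas from -0.28 to 0.47. The cause of these changes was not tested.

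The samples share replicate numbers, with a correlation of deviations of 0.239 (0.179 without X and Y genes), but no label pairs them. With the replicate number as a block 794 genes were called (378 higher, 416 lower), among them 2 of the receptors, Tnfrsf25 and Tnfrsf18 (0.71, adjusted p = 0.034 by edgeR). GC correction with the block gave 488 calls (158 and 330), Tnfrsf25 among them, and turned the sign of Cd27 (-0.047), Cd28 (0.061) and Tnfrsf1a (-0.0065). Tnfrsf4 did not reach the test without Hic1 vector replicate 1 and had no adjusted p by DESeq2. It had 3 to 6 counts per empty vector library.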

Other observations

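Tnfrsf25, Tnfrsf4, Tnfrsf9, Tnfrsf18 and Tnfrsf1b all lie on chromosome 4, Cd27 and Tnfrsf1a lie 112352 bases apart on chromosome 6, and Cd28 and Icos lie 204568 bases apart on chromosome 1, with Ctla4 between them. The genes beside Tnfrsf25, chosen for their position after the data were seen, did not all share its value. Plekhg5, 534 bases before Tnfrsf25, had a log2 fold change of -0.0025 ± 0.381 (SE, n = 2 per group). Nol9, 54440 bases before Tnfrsf25, had one of -0.99 ± 0.406 that did not pass (adjusted p = 0.224 by edgeR). Espn, 212 bases after Tnfrsf25 on the opposite strand, had one of 1.54 ± 1.06 that did not pass. Acot7, an acyl-CoA thioesterase gene 58015 bases away, rose by 1.10 ± 0.148 on the log2 scale (adjusted p = 0.00855 by edgeR). Beside Tnfrsf9, Errfi1, an inhibitor of EGF receptor signalling, fell by 0.94 (SE 0.179, adjusted p = 0.0278 by edgeR), Camta1, a transcription activator gene that overlaps Tnfrsf9, fell by 1.37 (SE 0.312, adjusted p = 0.0474), and Park7, 125 bases before Tnfrsf9, had a value of 0.09 ± 0.144. Sdf4, 233 bases before Tnfrsf4, had a value of 0.38 ± 0.137. Ctla4, an inhibitory receptor of the CD28 family, had 20.1 and 10.5 CPM with the empty vector and 33.6 and 15.8 CPM with the Hic1 vector. Its groups overlapped, and its log2 value of 0.67 ± 0.42 did not pass.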
